A study of Mus musculus with 12 samples.

Results

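The combinations of 4 histone H3 modifications were examined in the villi of mouse small intestine, using the peak lists of H3K4me3, H3K4me1, H3K27me3 and H3K9me3. All 88204 peaks of these 4 villi lists were taken, of 169081 in the 10 lists of the series, and every protein-coding gene of the GENCODE M21 annotation of GRCm38 was given a class by the marks called within 1 kb of any of its transcription start sites. This gave 21853 genes with 54361 distinct start sites, and 13617 genes had 2 or more of them. In the study, chromatin of crypts and of villi scraped from the intestine was immunoprecipitated after addition of 5% Drosophila S2 chromatin, to map H3 modifications across the genome in tissue where the H3 tail is clipped by proteases. There were 12 libraries in all, inputs included, with 1 library per mark and compartment, and all samples carry only the labels of tissue and antibody. No genotype, age or treatment is labelled for them. A peak is an interval that the authors called on mm10 at a p-value of 1e-10, and its score was taken as the −log10 p-value, although a corrected value on the same scale cannot be told apart from it. With 1 library per mark no test of a difference was made. Intervals are 95% Wilson intervals of a share, which cover counting error only, and neighbouring peaks and genes are not independent. The lists carry no read counts, so sequencing depth is not known, and calls were made without regard to the spike-in.

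H3K4me3 is laid down at the start sites of active and poised genes, mostly in CpG islands, by the Set1 and MLL family of methyltransferases. H3K4me1 marks enhancers and the flanks of active promoters. H3K27me3 is the mark of the Polycomb repressive complex PRC2, which contains Ezh2, Eed and Suz12 and keeps developmental genes silent, and promoters with H3K4me3 and H3K27me3 together are called bivalent. H3K9me3 marks constitutive heterochromatin, satellites, transposons and some zinc finger genes. Villi are covered by enterocytes, the absorptive cells, with goblet, enteroendocrine and tuft cells and intraepithelial lymphocytes among them, and their core holds leukocytes, fibroblasts, muscle, vessels and nerves. Since villi were taken as tissue, marks that share a nucleosome, marks on different alleles and marks in different cells cannot be told apart.

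The sequence around the start site differed between the classes described below, and 1 promoter near the median CpG content of its class is printed as an example for 7 of the 8 most frequent classes. The match to the median is over 1 kb on either side of the start site, so the CpG counts of the shorter printed stretches do not follow the order of the classes. Each stretch holds the 200 bases before the 5′-most start site of the gene, read 5′ to 3′ on the transcribed strand from the RefSeq sequence of GRCm38, with every CpG dinucleotide in capitals. Psmd3, a proteasome subunit at chr11:98682354-98682553 (forward strand), stands for H3K4me3 with H3K4me1, and Psmb5, another subunit at chr14:54618023-54618222 (reverse strand), for H3K4me3 alone. Foxa2, which encodes an endodermal transcription factor, at chr2:148046970-148047169 (reverse strand), stands for H3K4me3, H3K4me1 and H3K27me3 together. Hoxb4 at chr11:96318067-96318266 (forward strand) carried H3K4me3 with H3K27me3, and Hoxc5 at chr15:103013615-103013814 (forward strand) carried H3K4me1 with H3K27me3. Dclk1, a kinase gene used as a tuft cell marker, at chr3:55242164-55242363 (forward strand), had H3K27me3 alone. The olfactory receptor gene Olfr67 at chr7:103791822-103792021 (reverse strand) had none of the 4 marks. CpG was counted 7 times in the printed bases of Psmd3, 13 times in Psmb5, 6 in Foxa2, 8 in Hoxb4, 6 in Hoxc5, 3 in Dclk1 and 2 in Olfr67.
Psmd3: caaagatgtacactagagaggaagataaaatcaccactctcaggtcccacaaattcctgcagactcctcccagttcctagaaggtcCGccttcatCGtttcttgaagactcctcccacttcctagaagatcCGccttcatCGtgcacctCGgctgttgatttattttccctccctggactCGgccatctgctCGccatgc
Psmb5: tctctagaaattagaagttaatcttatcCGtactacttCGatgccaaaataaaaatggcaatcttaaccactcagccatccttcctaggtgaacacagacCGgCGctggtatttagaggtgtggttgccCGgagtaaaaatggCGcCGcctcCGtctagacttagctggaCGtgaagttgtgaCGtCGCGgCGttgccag
Foxa2: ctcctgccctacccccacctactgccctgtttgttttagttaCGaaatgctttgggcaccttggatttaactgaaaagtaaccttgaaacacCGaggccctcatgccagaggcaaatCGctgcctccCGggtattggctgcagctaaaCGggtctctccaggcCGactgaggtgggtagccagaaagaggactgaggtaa
Hoxb4: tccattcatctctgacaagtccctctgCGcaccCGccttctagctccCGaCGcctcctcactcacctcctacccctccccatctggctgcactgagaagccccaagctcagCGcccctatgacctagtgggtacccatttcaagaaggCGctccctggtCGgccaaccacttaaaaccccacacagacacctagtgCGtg
Hoxc5: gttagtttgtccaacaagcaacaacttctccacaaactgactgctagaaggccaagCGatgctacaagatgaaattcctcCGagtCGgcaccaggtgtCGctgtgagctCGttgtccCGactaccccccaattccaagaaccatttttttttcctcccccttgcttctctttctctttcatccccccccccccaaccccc
Dclk1: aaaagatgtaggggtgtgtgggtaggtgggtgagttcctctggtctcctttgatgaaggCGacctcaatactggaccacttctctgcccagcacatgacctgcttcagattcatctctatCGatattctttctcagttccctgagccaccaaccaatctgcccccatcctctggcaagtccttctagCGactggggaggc
Olfr67: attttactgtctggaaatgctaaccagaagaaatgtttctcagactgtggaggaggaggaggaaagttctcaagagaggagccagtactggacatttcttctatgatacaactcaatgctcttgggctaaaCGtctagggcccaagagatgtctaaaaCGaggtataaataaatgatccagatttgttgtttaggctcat

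The first question was how far the 4 marks lay on the same ground. Peaks of any mark covered 149.3 Mb, of which 83.0 Mb (55.6%) had H3K4me1 alone and 31.9 Mb (21.3%) had H3K27me3 alone. H3K4me3 with H3K4me1 covered 15.2 Mb and H3K4me3 alone 13.4 Mb, so that the 2 methylation states of lysine 4 made up most of the covered bases that held more than 1 mark. H3K4me1 with H3K27me3 covered 2.28 Mb and all 3 of these marks 1.27 Mb. H3K9me3 lay apart, with 2.08 Mb on its own. H3K9me3 touched no other mark in 1968 of its 2089 peaks (94.2%), whereas the peaks without another mark were 73.4% for H3K27me3, 63.2% for H3K4me1 and 11.1% for H3K4me3.

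**Figure D1:**
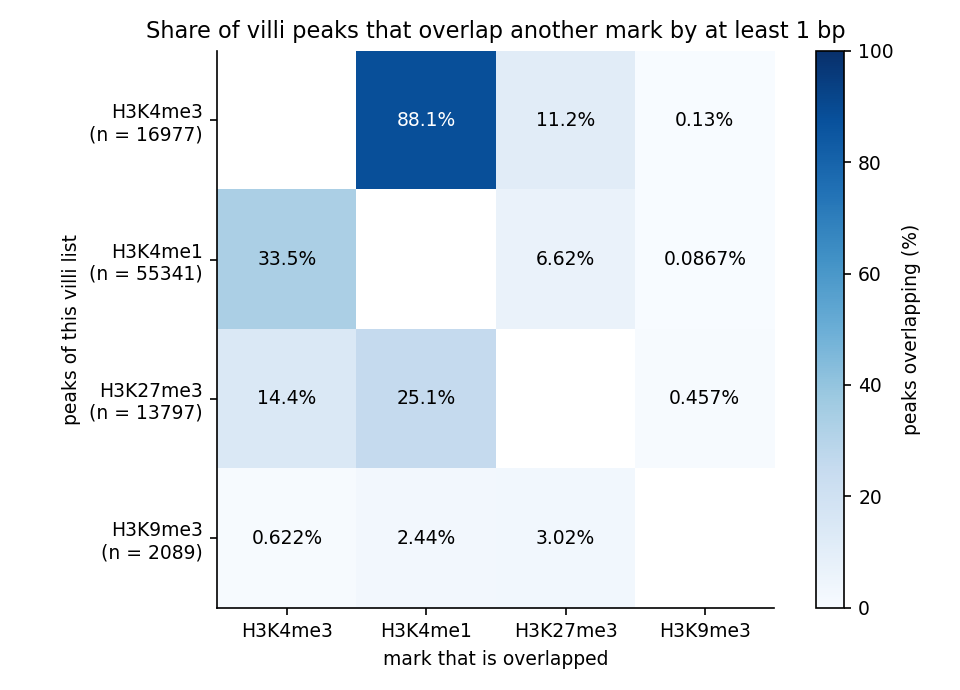
Share of the peaks of each villi list (one line of squares per list, n in brackets) that overlap a peak of another villi list by at least 1 bp, in percent of the list. The square of H3K4me3 over H3K4me1 stands at 88.1%, and each square that involves H3K9me3 is at 3.02% or less.

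H3K4me3 and H3K4me1 were the pair that met most often. An H3K4me1 peak overlapped 14964 of the 16977 H3K4me3 peaks (88.1%, 87.7 to 88.6%), and the share was nearly the same within 1 kb of a start site (88.2%) and farther away (88.0%). In the other direction 18513 of 55341 H3K4me1 peaks met H3K4me3 (33.5%), and here position mattered, with 84.6% (84.0 to 85.2%) near start sites and 13.2% (12.9 to 13.5%) of the 39644 farther away. The median score of the H3K4me3 peaks was 133 with H3K4me1 and 90.4 without. The marks usually overlapped in part, and the median share of an H3K4me3 peak that H3K4me1 covered was 67.0%. Among the 14964 H3K4me3 peaks, 4748 (31.7%) lay within a single H3K4me1 peak. At 3663 of them (24.5%) separate H3K4me1 peaks reached past both ends, and at 6057 (40.5%) H3K4me1 reached past 1 end. In 496 (3.32%) H3K4me1 was inside the H3K4me3 peak.

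H3K27me3 overlapped 1901 H3K4me3 peaks, of which 113 remained as overlaps among the top 50% of both lists, and these 1901 were weaker and narrower than the rest. Their median width was 977 bp and their median score 34.5, against 1581 bp and 150 for H3K4me3 peaks free of H3K27me3. When H3K4me3 peaks were split by score into 10 groups of equal size, the share with H3K27me3 was 18.9% (17.1 to 20.9%) in the lowest group, between 13.5 and 24.6% in the next 4 groups and 0.295% (0.126 to 0.688%) in the highest. H3K27me3 went the other way. Its peaks were 2926 bp wide in the median where they met H3K4me3 and 1468 bp elsewhere, and the share with H3K4me3 rose from 4.13% (3.20 to 5.32%) in the lowest of 10 score groups to 36.3% (33.8 to 38.9%) in the highest. A wide peak has more room to meet another, and the part of width in these shares was not tested. Where both marks met, H3K27me3 usually covered much of the H3K4me3 peak. The median was 91.3% of the H3K4me3 bases, 884 peaks (46.5%) lay wholly within 1 H3K27me3 peak, and at 825 (43.4%) H3K27me3 reached past 1 end only. In 242 (12.7%) the 2 marks shared under 25% of the H3K4me3 peak.

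H3K27me3 met H3K4me1 in more of its peaks than H3K4me3, which it met in 1980. An H3K4me1 peak overlapped 3465 H3K27me3 peaks (25.1%, 24.4 to 25.8%), with 56.6% (55.1 to 58.1%) near start sites and 11.6% (10.9 to 12.2%) farther away. By score this share ran from 8.19% (6.86 to 9.76%) in the lowest of 10 groups to 68.7% (66.2 to 71.1%) in the highest. Seen from H3K4me1, 3664 peaks (6.62%) met H3K27me3, of which 1415 lay over 1 kb from any protein-coding start site. These distal H3K4me1 peaks sat closer to genes than distal H3K4me1 peaks at large, with 48.7% against 33.5% within 10 kb of a start site, and 735 of them (51.9%) lay wholly within H3K27me3. By nearest gene, and named after their values were seen, 6 each lay nearest to Pax2, Nr2f2, Rnf220 and Megf11, and 5 each nearest to Wnt10a, Cyp26b1, Unc13a and Scarb1. How many of all distal H3K4me1 peaks lay nearest to each of these genes was not counted. Pax2 and Nr2f2 encode transcription factors of organ formation, and Cyp26b1 encodes an enzyme that breaks down retinoic acid. Whether the named genes share a function was not tested.

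H3K9me3 rarely met another mark. It overlapped 22 H3K4me3 peaks (0.130%, 0.0856 to 0.196%), 48 H3K4me1 peaks (0.0867%) and 63 H3K27me3 peaks (0.457%). Of its own peaks, 13 met H3K4me3 (0.622%), 51 H3K4me1 (2.44%) and 63 H3K27me3 (3.02%, 2.36 to 3.84%). The counts are small. Among the top 50% of each list they were 0, 12 and 29, or 0%, 0.0429% and 0.420% of the peaks. Halving the lists lowers such counts by construction, and the share of H3K27me3 peaks stayed near that of the whole list. Over 1 kb from a start site lay 5 of the 22 H3K4me3, 44 of the 48 H3K4me1 and 50 of the 63 H3K27me3 peaks. In the whole lists it was 4752 of 16977, 39644 of 55341 and 9642 of 13797. The promoters with H3K9me3 are described further on.

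The second question was which combinations protein-coding promoters carried. H3K4me3 was found at 12658 genes (57.9%), H3K4me1 at 12269 (56.1%), H3K27me3 at 3513 (16.1%) and H3K9me3 at 68 (0.311%). Of the 16 possible combinations 15 occurred, and the one not seen was H3K4me1 with H3K27me3 and H3K9me3. H3K4me3 with H3K4me1 was the most frequent, at 9322 genes (42.7%, 42.0 to 43.3%), followed by no mark at 6724 (30.8%, 30.2 to 31.4%). H3K4me3, H3K4me1 and H3K27me3 together marked 1604 genes (7.34%, 7.002 to 7.693%), and H3K4me3 alone 1591 (7.28%, 6.94 to 7.63%). H3K27me3 alone was found at 1112 genes (5.09%), H3K4me1 with H3K27me3 at 679 (3.11%) and H3K4me1 alone at 644 (2.95%). H3K4me3 with H3K27me3 and no H3K4me1 was left with 109 genes (0.499%). These counts depended on the score, and with the top 50% of each list they were 5076 for H3K4me3 with H3K4me1, 162 for H3K4me3, H3K4me1 and H3K27me3 and 3800 for H3K4me3 alone. In the same setting they were 1543 for H3K4me1 alone, 1135 for H3K4me1 with H3K27me3 and 63 for H3K4me3 with H3K27me3. In the 4 frequent classes with more than 1 mark, all marks stood at 1 and the same start site in 99.3% of genes with H3K4me3 and H3K4me1, 94.5% with all 3 marks, 96.9% with H3K4me1 and H3K27me3 and 88.1% with H3K4me3 and H3K27me3.

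**Figure D2:**
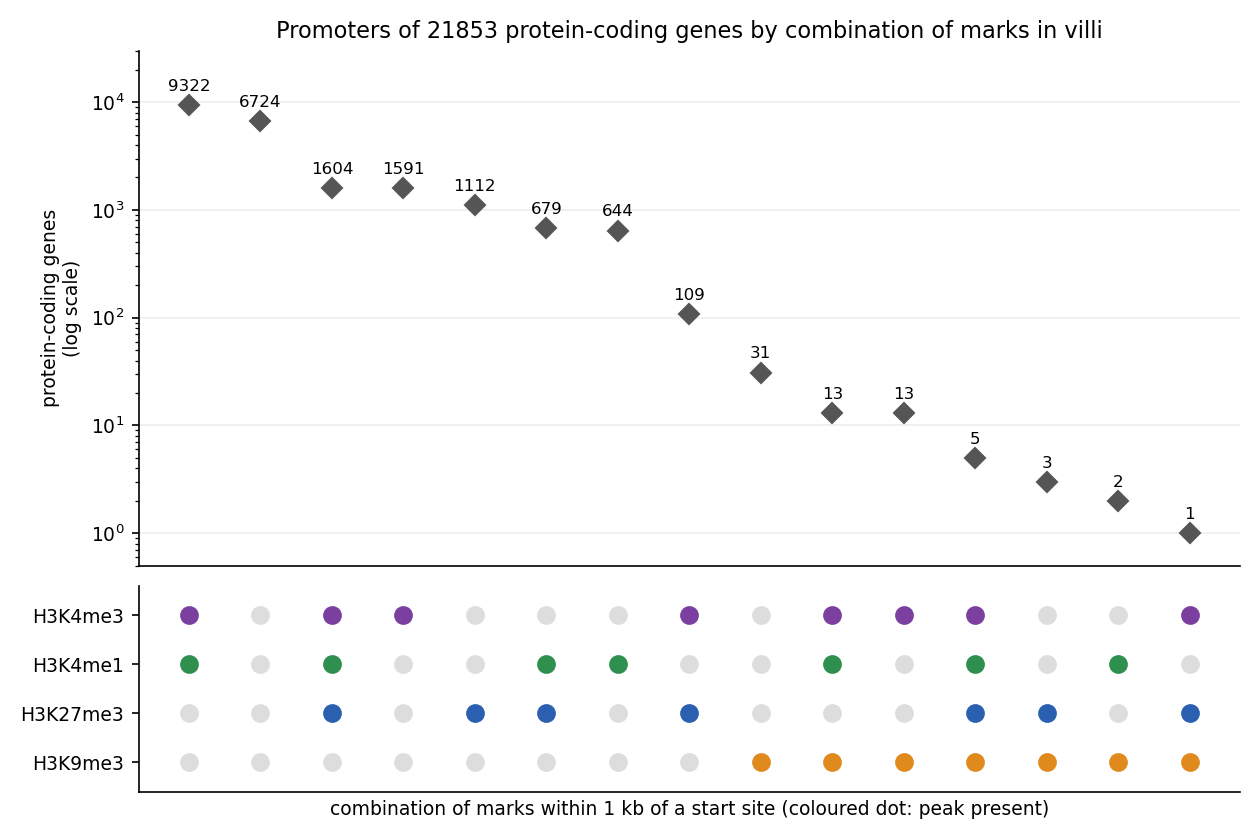
Number of protein-coding genes (log scale, each diamond 1 combination with its count) by the marks called within 1 kb of a start site in villi, with the combination shown by the coloured dots below. H3K4me3 with H3K4me1 stands first with 9322 genes and no mark second with 6724, and every combination with H3K9me3 holds 31 genes or fewer.

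Most bivalent promoters carried H3K4me1 too. Of the 1719 genes with H3K4me3 and H3K27me3 (7.87% of all), 1609 also had H3K4me1 (93.6%, 92.3 to 94.7%), compared with 85.3% (84.7 to 86.0%) of genes with H3K4me3 and no H3K27me3. Among genes with H3K27me3 and no H3K4me3 the share was 37.9% (35.6 to 40.1%), and with neither mark 8.73% (8.11 to 9.39%). At 1498 of the 1719 genes (87.1%, 85.5 to 88.6%) the H3K4me3 and H3K27me3 peaks overlapped each other, and at the others they stood at different places of the promoter or at different start sites.

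The classes also differed in the size of their peaks, taking the widest peak of a mark at each gene. H3K4me3 was 2031 bp wide in the median (quartiles 1535 and 2737 bp) with H3K4me1, 1685 bp (1270 and 2666 bp) alone and 1128 bp (780 and 1634 bp) with H3K4me1 and H3K27me3. The median score in these 3 classes was 229, 189 and 46.9. Among the 8 most frequent classes, H3K27me3 was widest with H3K4me1 and without H3K4me3, at 4139 bp (2570 and 7178 bp), against 3262 bp with all 3 marks and 2634 bp alone. Genes with H3K4me3 were ranked by its width into 10 groups of equal size. H3K27me3 was present at 52.4% of the narrowest group (323 to 942 bp) and at 3.32% of the widest (3627 bp or more). H3K4me1 was near a start site in 81.6 to 91.4% of the genes of every group, but it covered the 5′-most start base itself in 54.8% of the narrowest group and in 11.9 to 17.9% of the 7 widest.

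The position of the peaks around the start site showed how the marks were arranged. For this plot each gene was classed at its 5′-most start site only. With H3K4me3 and H3K4me1, H3K4me3 covered that base in 94.9% of 8679 genes, and H3K4me1 covered it in 20.4% but reached 42.2% at 1 kb upstream and 65.3% at 1 kb downstream. The 1361 genes with H3K4me3, H3K4me1 and H3K27me3 had no such gap in H3K4me1, which covered 71.9% at the start site and 80.8% at 500 bp downstream. In the same genes H3K27me3 dipped at the start site, to 55.03%, between 61.9% at 1 kb upstream and 81.0% at 1 kb downstream. Without H3K4me3 no dip was seen, and H3K27me3 covered the start site in 83.3% of the 666 genes with H3K4me1 and H3K27me3 and in 76.1% of the 1142 with H3K27me3 alone. H3K4me3 alone did not mean that H3K4me1 was far off, as H3K4me1 covered 29.6% of these 1906 promoters at 2 kb downstream. With a window of 500 bp, the class of H3K4me3 alone held 3382 genes, and with one of 5 kb it held 907.

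**Figure D3:**
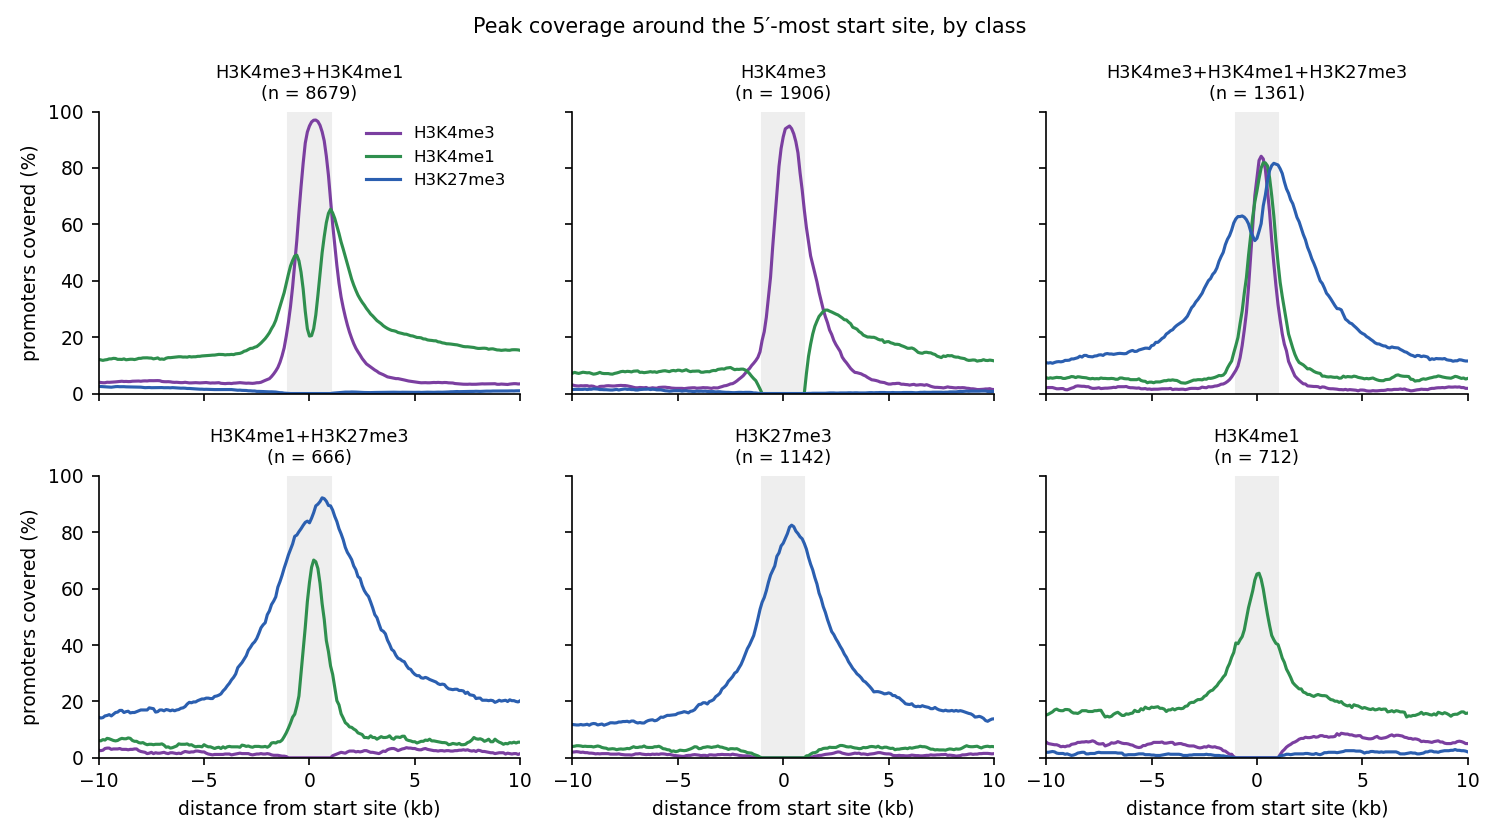
Percent of promoters (vertical axis) covered by a peak of H3K4me3, H3K4me1 or H3K27me3 at each distance from the 5′-most start site (horizontal axis, kb, negative upstream), in 6 classes set at that site, n above each panel. Grey marks the 1 kb on either side that set the class, in which absent marks are at 0 by construction, and H3K4me1 falls to 20.4% at the start site where it accompanies H3K4me3 but stands at 71.9% there where H3K27me3 is also present.

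Median CpG content was higher in the 4 frequent classes with H3K4me3 than in those without. The observed over expected CpG ratio, in the 1 kb on either side of the 5′-most start site, had a median of 0.478 over all genes. It was 0.621 both for H3K4me3 with H3K4me1 and for H3K4me3 alone, 0.617 for H3K4me3, H3K4me1 and H3K27me3 and 0.601 for H3K4me3 with H3K27me3. H3K27me3 without H3K4me3 was lower, at 0.491 with H3K4me1 (quartiles 0.375 and 0.624) and 0.432 alone (0.277 and 0.608). Among the 8 most frequent classes, H3K4me1 alone, at 0.226 (0.164 and 0.300), and no mark, at 0.164 (0.111 and 0.251), were lowest. The quartiles of the classes with H3K4me3 overlapped one another almost fully. Those of H3K27me3 without H3K4me3 overlapped them in part, and those of the 2 lowest classes lay wholly below them. Over 10 groups of all genes from the lowest to the highest CpG ratio, the share with H3K4me3 climbed from 5.13% to 94.7% and the share with no mark fell from 89.9% to 0.732%. H3K27me3 without H3K4me3 had its highest share in the middle, at 16.2% in group 5, against 1.97% in the lowest and 4.44% in the highest.

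**Figure D4:**
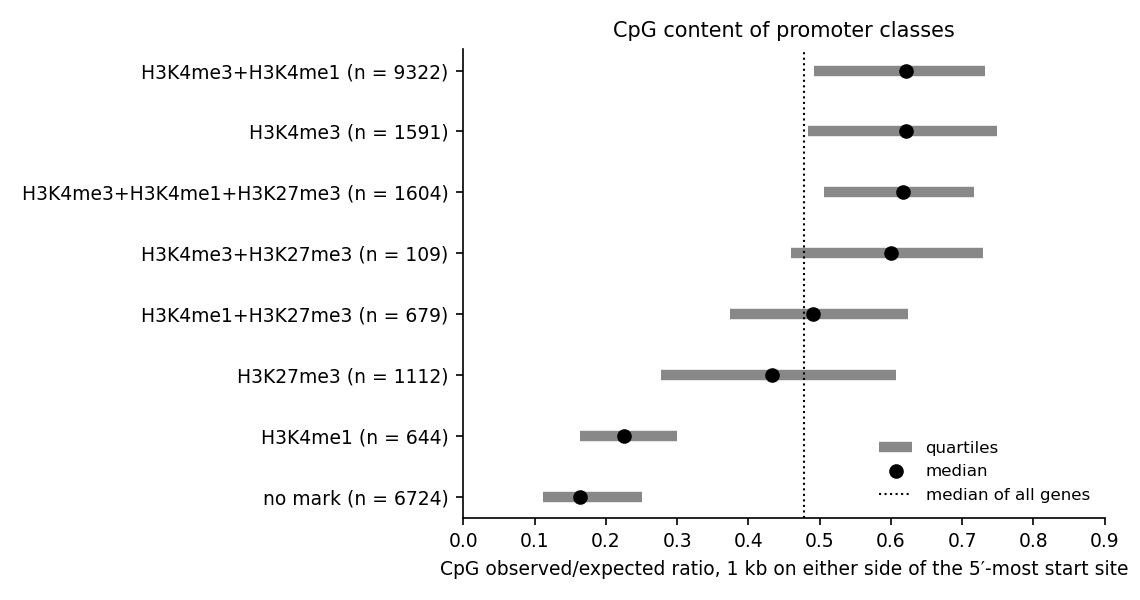
Observed over expected CpG ratio around the 5′-most start site (horizontal axis, no unit) for the 8 most frequent classes, with the median as a dot, the quartiles as a bar and the median of all genes, 0.478, as a dotted line. The 4 classes with H3K4me3 have medians of 0.601 to 0.621, and the promoters without a mark one of 0.164.

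Other features of the promoters went along with these classes. Another gene started on the opposite strand within 1 kb at 11.1% of all promoters. The share was 20.7% (19.9 to 21.6%) with H3K4me3 and H3K4me1 and 12.8% (11.3 to 14.5%) with H3K4me3 alone. With H3K4me3 and H3K27me3 it was 17.4% (11.5 to 25.6%), and with H3K4me3, H3K4me1 and H3K27me3 7.11% (5.95 to 8.47%). It was 3.24% with H3K4me1 and H3K27me3, 2.88% with H3K27me3 alone, 2.02% with H3K4me1 alone and 1.23% (1.00 to 1.53%) with none. Genes that share such a start site also share peaks. The letters TATAAA, searched from -40 to -16 on the transcribed strand only, were found in 2.39% of all promoters, in 5.01% (4.52 to 5.56%) of those without a mark and in 0.848% (0.681 to 1.06%) of those with H3K4me3 and H3K4me1. Among these 8 classes GC content was highest with H3K4me3, H3K4me1 and H3K27me3, at a median of 57.2% (quartiles 53.8 and 60.6%), and lowest with no mark, at 43.6% (38.7 and 48.1%). Chromosome X held 948 of all 21853 genes. It held 258 of the 1591 genes with H3K4me3 alone (16.2%) and 79 of the 9322 with H3K4me3 and H3K4me1 (0.847%). On that chromosome H3K4me1 was called at 10.3% of genes (56.1% of all genes), H3K4me3 at 37.9% (57.9%) and H3K27me3 at 4.85% (16.1%). No mark was called there at 58.9% (30.8%). Without chromosomes X and Y the class of H3K4me3 alone held 1329 genes.

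Absorptive genes and their regulators carried H3K4me3 without H3K27me3, a state found at 50.1% of all genes. All 20 genes of the enterocyte list were in it, among them Vil1, an actin bundler of the brush border, Alpi, the intestinal alkaline phosphatase, and Fabp1, a fatty acid carrier. Their H3K4me3 peaks were broad, with a median width of 5574 bp, and 17 of the 20 were in the widest of the 10 width groups. At Vil1 the H3K4me3 peak ran over 8368 bp with a score of 467, with H3K4me1 peaks of 5300 bp before and 6084 bp after it. Krt20, a keratin of mature villus cells, had H3K4me3 alone over 9376 bp, and Fabp1 over 3582 bp. Of the 14 intestinal transcription factors, 12 had H3K4me3 without H3K27me3, and all 13 with H3K4me3 were in the widest group, with a median of 6683 bp. In 7 of these 13, H3K4me1 did not come within 1 kb of a start site, whereas it did at 86.5% of all genes with H3K4me3 and at 85.6% of those in the widest group. Among them were Cdx2, the intestinal homeobox factor, with 10371 bp, Klf5, a zinc finger factor of epithelial growth, with 12915 bp, and Elf3, an epithelial ETS factor, with 7012 bp. Hnf4a, a nuclear receptor of enterocyte genes, had H3K4me3 with H3K4me1 and no H3K27me3, and its H3K4me3 peaks at 2 groups of start sites spanned 2606 and 5599 bp. Gata4 was the exception with H3K27me3, in a peak of 856 bp and a score of 10.5 at an upstream start site, and Creb3l3 had no mark.

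Genes of housekeeping and of cell division mostly had H3K4me3 without H3K27me3, the state of 50.1% of all genes. Each of the 20 housekeeping genes and each of the 20 cell cycle genes had H3K4me3 without H3K27me3, with a median width of 2538 and 1695 bp. Of 80 ribosomal protein genes 76 were in the same state, as were 35 of 36 subunits of mitochondrial complex I and 37 of 39 of the proteasome. Neither remaining proteasome gene, Psmb11 and Psma8, had a mark, and these encode the thymus and testis forms. Of 67 replication-dependent histone genes 58 had H3K4me3 without H3K27me3, 6 had no mark, 2 had H3K4me1 alone and 1 had H3K4me3 with H3K27me3. By score, Hjurp, a chaperone of the centromeric histone, Gapdh, the glycolytic enzyme, and Fam192a led the class of H3K4me3 with H3K4me1, with 1216, 708 and 640. Tada3, an adaptor of histone acetyltransferase complexes, led that of H3K4me3 alone with 616, ahead of Edem1, which acts in the disposal of misfolded proteins, with 523, and Gm10382 with 522.

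**Figure D5:**
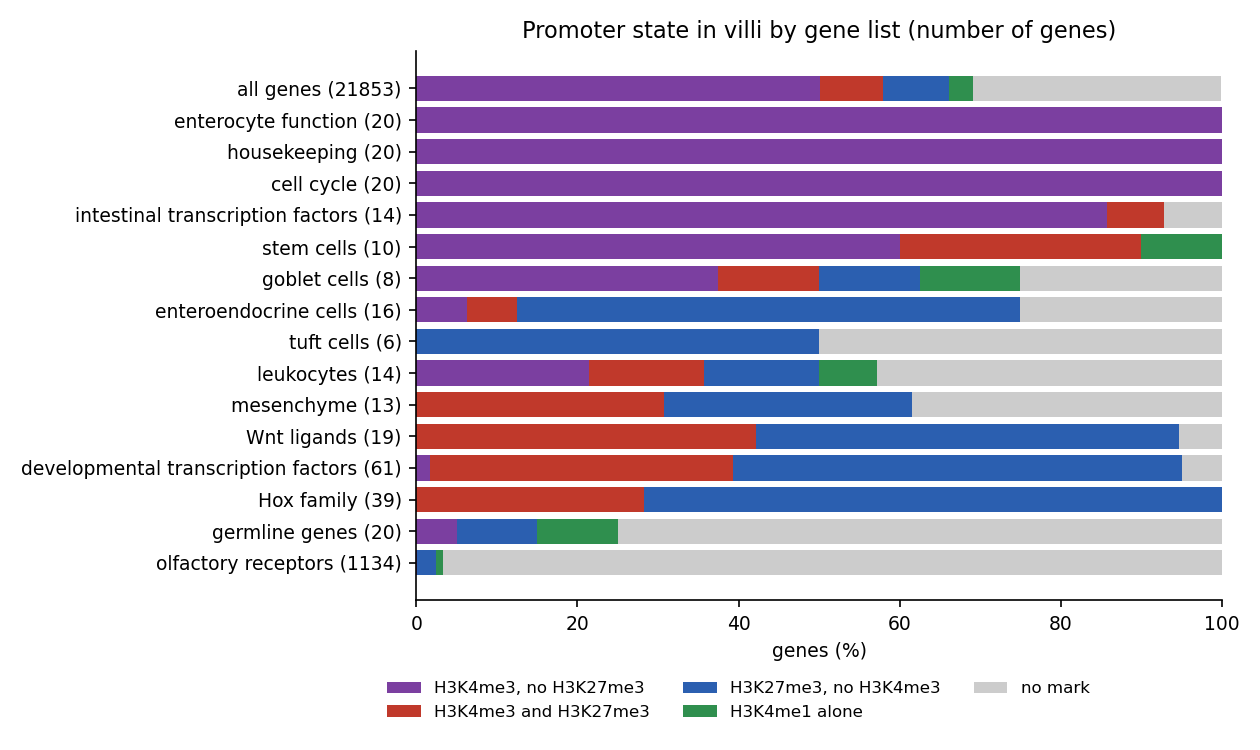
Share of the genes of each list (horizontal axis, percent, number of genes in brackets) by promoter state in villi, with all 21853 genes in the top bar. Enterocyte, housekeeping and cell cycle genes have H3K4me3 without H3K27me3 in each of their 20 genes, and the Hox genes have H3K27me3 in all 39.

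Most of a list of 61 developmental transcription factors, largely of other organs, carried H3K27me3. It was found at 57 of them, 34 without H3K4me3 (8.21% of all genes were in that state) and 23 with it (7.87%), and the median width of their widest H3K27me3 peak was 13621 bp. Sox2, a factor of neural and stomach progenitors, had an H3K27me3 peak of 29391 bp that held an H3K4me3 peak of 439 bp and a score of 11.7. Pax6, a factor of eye and endocrine cells, had an H3K4me3 peak of 775 bp inside 22934 bp of H3K27me3. At Foxa2 the H3K4me3 peak spanned 2539 bp and reached into H3K27me3 peaks of 1674 and 3053 bp at its ends. The exception was Tbx3, a T-box factor, with H3K4me3 over 9838 bp, H3K4me1 and no H3K27me3, and Myf5, Pax8 and Gata1 had no mark. By the score of H3K27me3, Otp, a hypothalamic homeobox factor, led H3K27me3 alone with 69.5 over 14228 bp, ahead of Hoxc13 and Hoxc11 at 66.1. Sox18, a factor of vessels, led H3K4me1 with H3K27me3 with 69.8 over 11565 bp, ahead of Hoxc6 and Hoxc5, also at 66.1. These 4 Hoxc genes share 1 H3K27me3 peak of 110743 bp on chromosome 15. Kcnn1, a potassium channel, Gsx1, a homeobox factor of the forebrain, and Cpeb1, which binds messenger RNA, led the class of all 3 marks with 62.4, 62.3 and 61.0. At Kcnn1 the H3K4me3 peak lay at another start site than H3K27me3. Of 94 potassium channel genes, 26 had H3K27me3 with H3K4me3 (7.87% of all genes) and 35 had it without (8.21%).

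All 39 Hox genes, which set position along the body axis, had H3K27me3, against 16.1% of all genes, and H3K4me3 was present at 11 of them, against 57.9%. The widest H3K4me3 peak at each of these 11 genes had a median width of 907 bp, with a range of 503 to 3529 bp, and a median score of 31.7. Hoxa5 had one of 1200 bp within an H3K27me3 peak of 53982 bp, and Hoxb6 had H3K4me3 peaks of 3529 and 419 bp within one of 24450 bp. Dmrt3, a factor of sex determination and spinal neurons, led H3K4me3 with H3K27me3 by score, with an H3K4me3 peak of 891 bp inside an H3K27me3 peak of 15488 bp. Polr3gl, a subunit of RNA polymerase III, was next, and there the marks stood beside each other without overlap, H3K4me3 from 96593240 to 96594620 and H3K27me3 from 96595006 to 96604470 on chromosome 3.

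Of 19 Wnt ligand genes 18 had H3K27me3 (16.1% of all genes), 8 with H3K4me3 (7.87%) and 10 without (8.21%), and H3K4me1 lay at 16 (56.1%). Wnt3, which Paneth cells supply to stem cells, had an H3K4me3 peak of 839 bp within 6570 bp of H3K27me3. Wnt8a had no mark. Of 20 ligands and antagonists of the Bmp and Tgfb family, 13 had H3K27me3, 8 of them with H3K4me3, and 2 had no mark. Bmp2, Bmp3, Bmp7, Bmp8a and Inhba had H3K4me3 without H3K27me3, as had 50.1% of all genes.

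Among 10 stem cell genes, 6 had H3K4me3 and H3K4me1 without H3K27me3, against 42.7% of all genes, such as Axin2 and Rnf43, which restrain Wnt signalling, and Smoc2. Lgr5, the receptor that marks crypt base stem cells, Ascl2, their transcription factor, and Tnfrsf19 had H3K27me3 as well, against 7.34% of all genes with these 3 marks. At Lgr5 an H3K4me3 peak of 1356 bp with a score of 17.3 lay within an H3K4me1 peak of 2666 bp and an H3K27me3 peak of 3161 bp. At Ascl2 H3K4me3 covered 2045 bp with a score of 46.1, between H3K27me3 peaks of 1936 and 3987 bp that both reached into it. Olfm4 had H3K4me1 alone, a state found at 2.95% of all genes. In crypts, Lgr5 and Ascl2 had the same 3 marks, as had 68.6% of all genes with these 3 marks in villi. Tnfrsf19 and Olfm4 had H3K4me3 with H3K4me1 in crypts. So had 17.6% of all genes with the 3 marks in villi and 10.6% of those with H3K4me1 alone.

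The secretory cells of the epithelium gave a mixed picture. Of 16 enteroendocrine genes, 10 had H3K27me3 without H3K4me3 (8.21% of all genes) and 4, Gip, Gcg, Sst and Nts, had no mark (30.8%). The 10 include Chga, a granule protein, Cck and Pyy, gut hormones, and Neurog3, the factor that starts the lineage, each with H3K4me1 inside H3K27me3. At Cck the H3K27me3 peak was 6359 bp wide and held H3K4me1 peaks of 743 and 812 bp. Sct, which encodes secretin, was the only one with H3K4me3 and no H3K27me3, over 1414 bp, and Isl1, an endocrine factor, had all 3 marks. Of 6 tuft cell genes 3 had H3K27me3 (16.1% of all genes) and 3 no mark (30.8%), and Pou2f3, the factor of that lineage, had H3K4me1 with H3K27me3. Of 8 goblet cell genes 4 had H3K4me3, against 57.9% of all genes. Muc2, the mucin of goblet cells, had H3K4me3 over 2235 bp with a score of 12.8 inside an H3K27me3 peak of 4488 bp with a score of 15.98. Spdef, the goblet cell factor, had H3K4me3 over 2356 bp with a score of 26.9, and Agr2 and Tff3 had H3K4me3 with H3K4me1. Of the other 4, Zg16 had H3K4me1 with H3K27me3, Fcgbp had H3K4me1 alone, and Clca1 and Retnlb had no mark. Of 6 Paneth cell genes, Lyz1 and Itln1 had H3K4me1 alone (2.95% of all genes), Ang4 had H3K4me3 over 982 bp with a score of 11.7, and Defa17, Defa24 and Mmp7 had no mark.

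Some genes of leukocytes and of mesenchymal and endothelial cells carried marks. Of 14 leukocyte genes 5 had H3K4me3, against 57.9% of all genes, and 6 had no mark. The 5 were Ptprc, the common leukocyte antigen, Gzma, a granzyme, and Cd8a, Cd3e and Cd3g of T cells, with scores of 10.8 to 21.9. None of these 5 had a mark at its promoter in crypts, as was the case for 45 of all 1591 genes with H3K4me3 alone (2.83%) and 6 of all 109 with H3K4me3 and H3K27me3 (5.50%). At Cd3e an H3K4me3 peak of 1181 bp lay within an H3K27me3 peak of 1668 bp, and Cd3g also had both marks. Of 13 mesenchymal genes 5 had no mark and 8 had H3K27me3, against 16.1% of all genes, and Col1a1, Vim, Pdgfra and Foxf1 had it with H3K4me3. At Pdgfra, a receptor of fibroblasts, H3K4me3 covered 1369 bp with a score of 32.9, and overlapped an H3K27me3 peak of 13157 bp. The endothelial gene Kdr had all 3 marks, and 4 of the 6 endothelial genes, Pecam1, Cdh5, Tek and Vwf, had none, against 30.8% of all genes. The part of cells other than enterocytes in the H3K4me3 peaks with H3K27me3 was not tested.

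Chromatin regulators were mostly marked by H3K4me3. All 16 genes of enzymes and cofactors of H3K4 methylation, and 17 of 18 of H3K9 methylation, had it without H3K27me3, against 50.1% of all genes. Zfp57, a zinc finger protein of imprinted loci, was the exception, with H3K4me1 and H3K27me3. Of 22 Polycomb and H3K27 demethylase genes, 6 had H3K27me3 next to H3K4me3, against 7.87% of all genes, namely Cbx2, Cbx6, Cbx7 and Cbx8, which read the mark, Phf19 and Bmi1. Ezh2, Eed and Suz12 of PRC2 itself had H3K4me3 without H3K27me3. Cbx2 had H3K4me3 over 1536 bp with a score of 175 and H3K27me3 over 4566 bp. Of the 7 genes of cyclin dependent kinase inhibitors, Cdkn2a and Cdkn1c had H3K27me3 with H3K4me3 and the others H3K4me3 without it, and at Cdkn2a the H3K4me3 peak had a score of 271 and overlapped H3K27me3 peaks of 8951 and 919 bp.

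Several large gene families with tissue-restricted use had mostly no mark, the state of 30.8% of all genes. Of 1134 olfactory receptor genes, 1097 had none (96.7%), as had 324 of 329 vomeronasal receptor genes and 61 of 64 defensin genes, the Paneth cell defensins included. Of 20 germline genes 15 had no mark. Keratin genes were split, with 18 of 49 under H3K27me3 without H3K4me3 (8.21% of all genes), 19 without a mark, 4 with H3K4me1 alone and 8 with H3K4me3 and no H3K27me3 (50.1%), among them Krt8, Krt18, Krt19 and Krt20 of simple epithelium.

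H3K9me3 was called at 68 promoters, and 31 of these (0.142% of all genes) had no other mark. By score, Gm10800, on chromosome 2 from 98666286 to 98667282, led with a score of 6789, ahead of Gm10801 with 660 and Sfi1, on chromosome 11, with 454. The 13 genes (0.0595%) with H3K9me3 and H3K4me3 and no other mark had a median of 95.7% soft-masked bases around the start site, against 13.9% over all genes. Among those with both marks at 1 start site, Gm21738, on chromosome 14, had the highest H3K9me3 score, 5169, and Gm10717 and Gm10718 came next. These last 2 share 1 H3K9me3 peak, from 3021469 to 3038299 on chromosome 9, with a score of 2878, and their H3K4me3 peaks have scores of 14.4 to 25.1. In such sequence the lists do not show how many copies of a repeat the reads came from. Of the 13 genes (0.0595%) with H3K4me3, H3K4me1 and H3K9me3, 4 had all marks at 1 start site, and the 3 of these with the highest H3K9me3 scores were as follows. Tmem267 and 3110070M22Rik, at 30.6, start from opposite strands and share the peaks, and Il3ra, a cytokine receptor subunit, had 21.98. Of 365 zinc finger genes named Zfp, 289 had H3K4me3 without H3K27me3 (50.1% of all genes) and 9 had H3K9me3 (0.311%), and 5 of these 9 had H3K4me3 and H3K4me1 as well. Among 57 clustered protocadherin genes 44 had no mark (30.8% of all genes) and 5 had H3K9me3 (0.311%), and Pcdhgb7 was the 1 gene (0.00458%) with H3K4me3, H3K27me3 and H3K9me3.

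Imprinted genes are expressed from the allele of 1 parent. Of 36 that matched the annotation, 13 had H3K4me3 without H3K27me3 (50.1% of all genes), 9 had both (7.87%), 7 had H3K27me3 without H3K4me3 (8.21%) and 5 had no mark (30.8%). H3K9me3 was found at Mest, Impact and Mkrn3, against 0.311% of all genes. At Mest, on chromosome 6, all 4 marks stood at 1 start site, with H3K4me3 from 30737912 to 30738287, H3K4me1 from 30736898 to 30738632, H3K9me3 from 30737456 to 30738713 and H3K27me3 from 30736121 to 30739350. H3K27me3 spanned the other 3 peaks, and the scores of all 4 were between 11.8 and 20.3. Igf2, a growth factor, Cdkn1c and Phlda2 had H3K4me3, H3K4me1 and H3K27me3. The other genes of the 5 with all 4 marks (0.0229%) were Ank3, Ppp4r4, Zcchc3 and 6820408C15Rik. At Ank3 and Ppp4r4 the marks were at different start sites, and the last pair start next to each other and share all peaks. H3K27me3 with H3K9me3 was found at 3 genes (0.0137%), among them Pcdhga11 and Tcfl5, and H3K4me1 with H3K9me3 at 2 (0.00915%), Mroh2a and Gsg1.

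The class of most genes was the same in crypts, where the same 4 marks were called in 1 library each. Of the 9322 genes with H3K4me3 and H3K4me1 in villi, 8745 were in that class in crypts (93.8%), and of the 6724 without a mark 6555 (97.5%). For the class of H3K4me3, H3K4me1 and H3K27me3 it was 1101 of 1604 (68.6%), with 283 of the remainder coming from H3K4me3 with H3K4me1. For H3K4me3 alone it was 543 of 1591 (34.1%), and 980 of the others had H3K4me1 as well in crypts. For H3K4me3 with H3K27me3 it was 28 of 109 (25.7%), and for H3K4me1 with H3K27me3 319 of 679 (47.0%). Of the 1112 genes with H3K27me3 alone, 701 had the same class in crypts (63.0%) and 333 had no mark there. Since the lists depend on the depth of each library, which is unknown, a mark gained or lost and a difference in the sensitivity of the calls cannot be told apart. In villi the paper reports lower signal of H3K4me1, H3K4me3 and H3K9me3, which it ascribes to clipping, with H3K27me3 retained at repressed promoters. It also relates changes in the location of marks to cell type composition. The part of either in these class changes was not tested.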

How the data were processed

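ChIP-seq with spiked-in chromatin (ChIP-Rx) of mouse intestinal villi and crypts was analysed from called peaks. Bowtie 1.1.2 served the authors for alignment to the mouse (mm10) and fly (dm6) genomes, duplicates and reads on both were removed, and they called peaks per library with MACS2 2.1.1 at a p-value of 1e-10, while deepTools 3.1 made their signal tracks (versions from the submitters' processing notes). The deposited lists hold positions and a value per peak, taken as the authors' −log10 p-value since every one is 10 or more, which depends on the depth of the library, is not scaled by the spike-in and served here for ranking within a list. Gaps in the peak numbers show that some calls were removed after numbering, and how is not given in the sources used here.

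Overlaps of at least 1 bp were computed with Python 3.11.15, NumPy 2.4.6 and pandas 2.3.3, intervals with SciPy 1.17.1 and figures with Matplotlib 3.10.9, and sequence was read with pyfaidx 0.9.0.4. All peaks lie within the chromosome lengths of GRCm38 and none overlaps another of its list. On 20000 simulated peaks the overlap code found the 7000 planted overlaps and 0 others. The text names genes of hand-written lists, the 3 genes with the highest score of the rarest mark in each class, every gene of a class of 10 or fewer except 1 that is not reported here, and for sequence the listed gene nearest to the median CpG ratio of its class. In classes of 1 mark other than H3K4me1 the 3 highest-scoring genes are named. Members and lists were chosen with earlier results of these data known. Of the imprinted list, 2 names were not matched. Inputs and the H3K9me2 lists were not used here. As alternatives, a stricter overlap, the higher-scoring 50% of each list, other windows, other choices of start site and autosomes only were tried.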

Additional observations from a re-analysis of the deposited data

How the results depend on the processing

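No paired analysis was possible because each mark has 1 library and the result comes from no test. Of 72 alternative values, 55 lay within 1.5 times the value in the report, judged by counts, or by shares where each start site was taken by itself. Using the top 50% of each list by score changed most. Of 8489 H3K4me3 peaks, 5206 then met H3K4me1 (61.3%, from 88.1%), 113 H3K27me3 (1.33%, from 11.2%) and 0 H3K9me3. Of 27987 H3K4me1 peaks, ties kept, 1711 met H3K27me3, and this share of 6.11% is close to the 6.62% of the whole list, while 12 met H3K9me3 (0.0429%, from 0.0867%). Likewise 29 of 6899 H3K27me3 peaks met H3K9me3, 0.420% against 0.457%. In promoters this setting gave 5076 genes with H3K4me3 and H3K4me1 (from 9322), 3800 with H3K4me3 alone (from 1591), 1543 with H3K4me1 alone (from 644), 1135 with H3K4me1 and H3K27me3 (from 679), 63 with H3K4me3 and H3K27me3 (from 109) and 162 with H3K4me3, H3K4me1 and H3K27me3 (from 1604). Halving the lists removes peaks by construction, so that a gene can lose marks but gain none. Requiring an overlap of 50% of the shorter peak left 27 H3K4me1 peaks with H3K9me3. A window of 500 bp gave 3382 genes with H3K4me3 alone, and one of 5 kb gave 907 of these and 220 genes with H3K9me3. With each start site taken by itself, 110 of 54361 had H3K9me3. Autosomes only, and the 5′-most start site only, moved no count by more than 1.5 times. The depth of the libraries is unknown, so an absent peak may be one below the threshold, and the sensitivity of the calls was not measured for any mark. No replicate bears on any count.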
